A study of Mus musculus with 7 samples.

Results

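The OAS genes encode oligoadenylate synthetases and their close relatives. An active synthetase binds double-stranded RNA, as many viruses make it, and joins ATP into short oligoadenylates. These small molecules act as a second messenger of the antiviral response. Interferon raises transcription of the family through a complex that includes STAT2 and IRF9, and most cell types, T lymphocytes among them, carry low OAS transcript without it. The genes described are Oas1a, Oas1g, Oas2, Oas3, Oasl1 and Oasl2, taken by gene name, 6 of the 53656 gene rows in each count file.

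Messenger RNA was sequenced from OT1 cells, CD8 T lymphocytes with a transgenic receptor for an ovalbumin peptide, isolated by flow cytometry on CD8 and CD45.1 out of tumours of B16-OVA-GP61. This mouse melanoma line carries ovalbumin as a model antigen together with GP61, a viral peptide seen by CD4 T cells. For 4 libraries the tumours held no SMARTA cells, CD4 T lymphocytes with a transgenic receptor for GP61, and for 3 libraries they did. Both groups share the tumour line and the OT1 receptor. Host strain, age, cell numbers and times are not given in the sources used here, nor whether each library came from its own animal. The p-values therefore describe variation among these 7 samples, some of which may be technical.

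Libraries held 38092722 to 49438357 counted read pairs. CD8 T cell markers summed to 10649 to 12689 CPM without SMARTA (counts per 1e6 counted pairs, here of the library total) and 12002 to 14469 with SMARTA. None of the 10 was called (edgeR; 4 at an unadjusted p under 0.05, 2 with DESeq2, 0 with limma-voom). Replicate 1 with SMARTA stood apart by its erythroid transcripts, 4829 summed CPM against 9.72 to 223 in the other 6 libraries. It also held the highest sum of B cell markers, 60.1 CPM against 10.4 to 38.8 in the other 6. Its NK cell sum was the highest too, 102 CPM against 15.9 to 90.1, of which Klrb1c was 101 CPM. Dendritic cell markers summed there to 954 CPM, against 476 and 501 CPM in replicates 2 and 3 with SMARTA and 820 to 951 CPM without. Replicates 1 and 2 without SMARTA held the most neutrophil transcript, 43.9 and 32.7 summed CPM over 8 markers against 0.773 to 4.64 in the other 5. Markers of CD4 T cells, at 47.3 to 110 summed CPM without and 131 to 154 with SMARTA, and of fibroblasts and endothelium, at 88.8 to 125 and 143 to 191, were higher in every library with SMARTA. Cd40lg and Pecam1, which T lymphocytes can also express, made up most of these sums. The exception was replicate 2 without SMARTA, where Cd40lg was at 44.3 of 99.4 CPM. Cd4 itself was at 0.659 to 7.31 CPM without and 2.05 to 8.09 CPM with SMARTA. Foxp3, of the same list, tended the other way, at 0.638 to 12.0 CPM without and 0 to 1.84 CPM with SMARTA, which overlap. By edgeR 0 markers of both lists were called (2 and 1 at an unadjusted p under 0.05); DESeq2 called 1 of each higher, and limma-voom 0 and 1. The part of these cells in the results below was not tested except where a value is given. Of 15896 genes tested, 48.2% of the 500 called were higher with SMARTA; with library totals alone as the scaling it was 29.1% of 561, and the median of all genes moved to −0.16 on the log2 scale.

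OAS transcript was more abundant in OT1 cells when SMARTA cells were in the tumour. Oas1a, Oas3, Oasl1 and Oasl2 rose, between 4.24-fold (Oas3) and 12.2-fold (Oasl2). Oas2 was higher in each of the 3 libraries with SMARTA than in any of the 4 others but did not pass the test, and Oas1g was close to the limit of detection in both groups. A gene was called at an adjusted p under 0.05 by edgeR's quasi-likelihood test with Benjamini-Hochberg adjustment over all genes tested. Called higher were 4 of 6 genes, where 1.52% of all genes tested were called higher, and 0 of 6 were called lower, where it was 1.63% of all genes (3.15% in either direction). By DESeq2 and limma-voom 0 were lower too. Of the 5 that passed the filter on low counts, none overlapped between the groups, against 8.73% of tested genes without overlap and higher with SMARTA. Their median log2 fold change was 2.70, beside −0.0034 over all genes tested. Levels of single genes are given in CPM after TMM scaling, a correction of library totals for composition. In these bulk libraries more transcript per cell cannot be told apart from more cells that carry it.

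**Figure D1:**
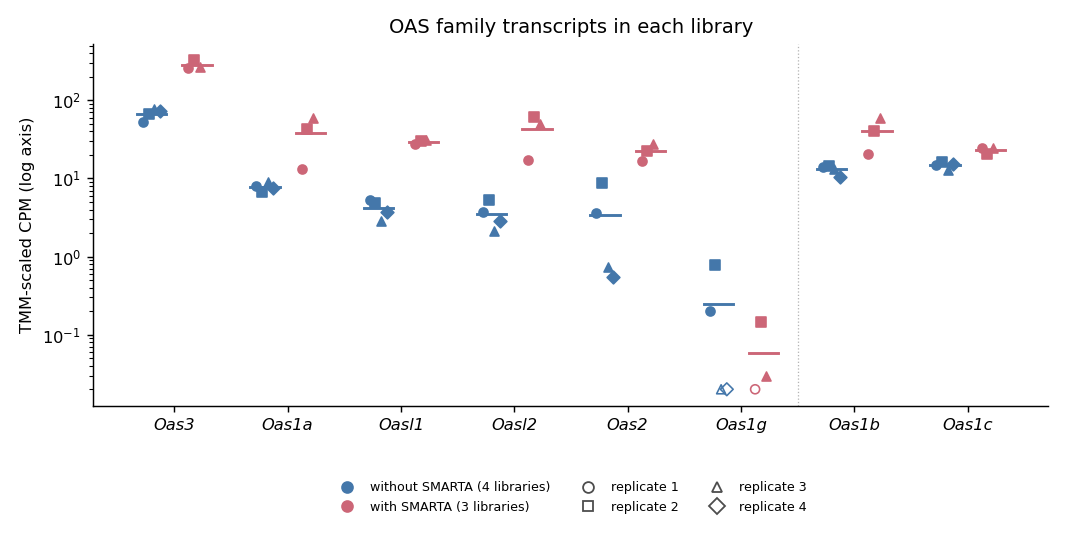
TMM-scaled CPM on a log axis for the 6 OAS genes and the paralogues Oas1b and Oas1c; each marker is 1 library, its shape the replicate number, and the short lines are group means. Open markers at the foot of the axis are libraries with 0 counts, all of them for Oas1g. For Oas3 and Oasl1 the 3 libraries with SMARTA lie close together and far above the others, while replicate 1 with SMARTA lies low for Oas1a, Oasl2 and Oas1b.

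Oas1a and Oas1g encode the small synthetases with a single catalytic unit, and they lie next to each other on the minus strand of chromosome 5 (GRCm38.p6), Oas1a from 120896256 to 120907521 and Oas1g from 120876142 to 120887613. The stretches of 120 bases before the annotated start of both genes, of Oas3 and of the paralogue Oas1c are printed here because they hold letters of the interferon-stimulated response element, the sequence that the complex with STAT2 and IRF9 and other interferon regulatory factors bind. They are RefSeq sequences of GRCm38.p6, written 5′ to 3′ on the strand of the gene, with matches to GAAA, any 2 bases and GAAA, or on the other strand TTTC, any 2 bases and TTTC, in capitals; touching matches run together.
Oas1a, chr5:120907526-120907645, minus strand: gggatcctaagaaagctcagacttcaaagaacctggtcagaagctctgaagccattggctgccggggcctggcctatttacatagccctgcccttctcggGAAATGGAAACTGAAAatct
Oas1g, chr5:120887614-120887733, minus strand: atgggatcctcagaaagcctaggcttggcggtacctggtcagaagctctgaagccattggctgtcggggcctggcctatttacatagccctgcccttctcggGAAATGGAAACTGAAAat
Oas3, chr5:120777660-120777779, minus strand: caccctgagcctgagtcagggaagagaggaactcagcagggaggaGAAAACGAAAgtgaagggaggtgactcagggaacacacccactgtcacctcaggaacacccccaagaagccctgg
Oas1c, chr5:120812515-120812634, minus strand: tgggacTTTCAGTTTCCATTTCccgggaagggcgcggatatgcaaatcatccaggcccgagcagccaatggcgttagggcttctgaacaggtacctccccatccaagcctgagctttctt

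RefSeq windows of 300 bases, most of each before the start of the gene, were at hand for 5 of the 6 genes. The window of Oas1a held 2 overlapping matches, the first beginning 20 bases before the start, that of Oas1g the same 2 beginning 18 bases before it, and that of Oas3 had 1 match 75 bases before it. The windows of Oasl1 and Oasl2 held no match, which says only that these letters are not in those windows. Among all 32851 RefSeq windows, 3.44% held at least 1 match and 0.225% held 2 or more. The letters TTCNNNGAA, those of the gamma interferon activated site, matched in the Oas1a window, 98 bases before the start, and in none of the other 4, against 8.3% of all windows; it does not overlap the capitals above. The Oas1a and Oas1g windows were 85.3% identical over their alignment.

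Oas1a was at 8.04, 6.76, 9.12 and 7.59 CPM in the 4 libraries without SMARTA, in order of replicate number, and at 13.2, 43.2 and 59.7 CPM in the 3 with SMARTA. The groups did not overlap, but replicate 1 with SMARTA lay only 1.45-fold above the highest library without. The log2 fold change was 2.30 ± 0.45 (SE; edgeR adjusted p = 0.0399), with means of 7.88 ± 0.982 CPM (SD, n = 4) and 38.7 ± 23.6 CPM (SD, n = 3). The call was the least firm of the 4: of the 7 fits with 1 library left out it held only in that without replicate 1 with SMARTA (2.69, edgeR adjusted p = 0.00306), and in the other 6 the log2 fold change was 1.84 to 2.37 with edgeR adjusted p from 0.0737 to 0.125. Limma-voom did not call Oas1a with all 7 libraries (adjusted p = 0.0689).

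Oas1g had 53 counts over all 7 libraries and did not pass the filter on low counts. It had 10, 36, 0 and 0 counts without SMARTA, or 0.202 and 0.782 CPM in replicates 1 and 2, and 0, 6 and 1 counts with SMARTA, or 0.144 and 0.0294 CPM in replicates 2 and 3. A library with 0 counts lay under 0.0609 to 0.0636 CPM, what 3 counts amount to there; this limit allows for counting error alone. In the fit with no filter its log2 fold change was −2.05 ± 1.94 (SE; edgeR adjusted p = 0.595), so no difference was detectable with so few counts. Of the 50-base words in Oas1g transcripts 45.7% also occur in transcripts of another gene, nearly all in Oas1a, and 57.6% of the words of Oas1a occur in Oas1g (GENCODE M21). The authors' counting leaves out reads that match several places, so both levels may be understated and are uncertain.

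Oas2 encodes the middle-sized synthetase, built of a pair of OAS units, and lies on chromosome 5 from 120730333 to 120749853, minus strand. Without SMARTA it was at 3.60, 8.85, 0.731 and 0.548 CPM in replicates 1 to 4, and with SMARTA at 16.7, 22.7 and 27.7 CPM. The 3 libraries with SMARTA were all higher than the 4 others, while the 4 others differed among themselves by up to 16.1-fold. The log2 fold change of 2.70 ± 0.87 (SE) did not pass (edgeR adjusted p = 0.137; unadjusted p = 0.0128). DESeq2 and limma-voom called it (adjusted p = 0.0096 and 0.0414), and edgeR adjusted p was 0.0507 to 0.306 with 1 library left out.

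Replicates 1 and 2 without SMARTA, the 2 highest of their group in Oas2, were also the 2 without-SMARTA libraries in which Oas1g had counts and those with the most neutrophil transcript. S100a8, a calcium-binding protein abundant in neutrophils, was at 11.1 and 14.03 CPM there (per library total) against 0.0937 to 0.648 CPM in the other 5 libraries. Retnlg was at 4.24 and 1.40 CPM and had 0 counts in the other 5. S100a9, Cxcr2 and Mmp8 were likewise highest in these 2 libraries. Csf3r and Camp were highest in replicate 1 without SMARTA but did not follow in replicate 2. There Csf3r was at 0.0242 CPM (1 count), below the 2.14 and 1.77 CPM of replicates 3 and 4 without SMARTA, and Camp had 0 counts. Ly6g had at most 6 counts in any library. None of the 5 neutrophil markers tested was called between the groups by edgeR (3 at an unadjusted p under 0.05; DESeq2 called 3 lower with SMARTA and limma-voom 0). Replicate 2, the highest in both Oas2 and Oas1g, also held the most melanoma transcript, 68.4 summed CPM against 6.94 to 17.9 in the other 6 libraries. The part of neutrophil and melanoma RNA in the spread of Oas2 and Oas1g was not tested.

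Oas3 encodes the largest synthetase, built of several OAS units, which in human and mouse cells responds to long double-stranded RNA. It lies on chromosome 5 from 120753098 to 120777661, minus strand, beside Oas2. Its level was 52.2, 66.3, 76.3 and 73.3 CPM without SMARTA and 259, 324 and 271 CPM with SMARTA. The lowest library with SMARTA was 3.39-fold above the highest without. The log2 fold change was 2.08 ± 0.20 (SE; edgeR adjusted p = 0.00825), from 67.04 ± 10.7 CPM (SD, n = 4) to 284 ± 34.7 CPM (SD, n = 3). Only 4 of the 15896 genes tested had a smaller p.

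Oasl1 and Oasl2 encode OAS-like proteins with ubiquitin-like domains at their end. In mice Oasl1 lacks synthetase activity and is known to hold back translation of Irf7 mRNA, while Oasl2 has kept synthetase activity. They lie side by side on the plus strand of chromosome 5, Oasl2 from 114896936 to 114912234 and Oasl1 from 114923240 to 114937915, several megabases from the other OAS genes.

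Oasl1 was at 5.30, 4.87, 2.88 and 3.75 CPM without SMARTA and at 27.2, 30.5 and 30.6 CPM with SMARTA. The libraries with SMARTA were nearly equal, and the lowest of them was 5.13-fold above the highest without, the widest gap among the 6 genes. The log2 fold change was 2.81 ± 0.29 (SE; edgeR adjusted p = 0.0109). Oas3 and Oasl1 were the 2 OAS genes called in each of the 7 fits that leave out 1 library, with edgeR adjusted p up to 0.0456 and 0.0486.

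Oasl2 was at 3.73, 5.35, 2.11 and 2.85 CPM without SMARTA and at 17.3, 61.5 and 49.4 CPM with SMARTA. Replicate 1 with SMARTA was lower than the other two but still 3.23-fold above the highest library without. The log2 fold change was 3.61 ± 0.49 (SE; edgeR adjusted p = 0.0166), from 3.51 ± 1.39 CPM (SD, n = 4) to 42.7 ± 22.9 CPM (SD, n = 3). It stayed called in 3 of the 7 fits that leave out 1 library, those without replicate 2 or 3 lacking SMARTA or replicate 1 with SMARTA, and had edgeR adjusted p of 0.0593 to 0.0663 in the other 4.

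**Figure D2:**
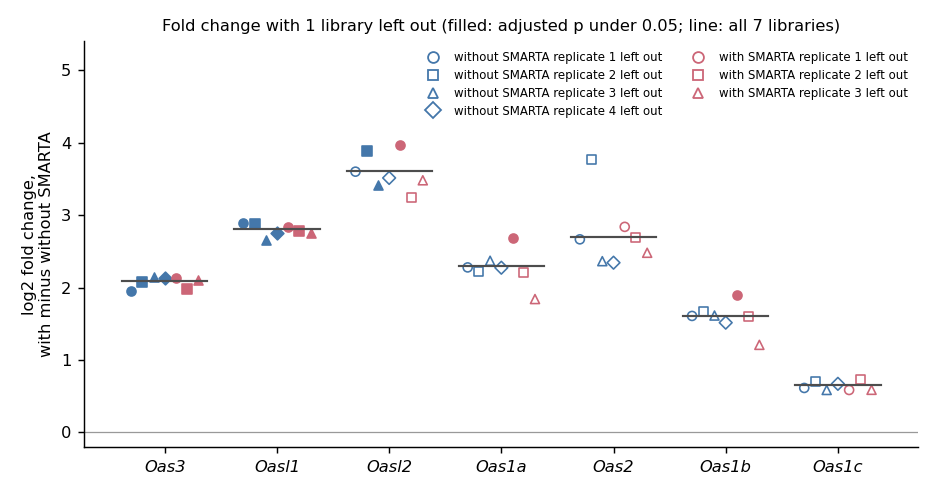
Log2 fold change (with minus without SMARTA, edgeR) of the 5 OAS genes tested, and of Oas1b and Oas1c when 1 library is left out; the colour and shape name the library, a filled marker has an adjusted p under 0.05, and the line is the value with all 7 libraries. Every value is above 0, Oas3 and Oasl1 are filled throughout, and for Oas1a and Oas1b only the marker without replicate 1 with SMARTA is filled.

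Replicate 1 with SMARTA, the library rich in erythroid transcripts, lay close to replicates 2 and 3 for some OAS genes and far below them for others. Oasl1 and Oas3 stood there at 89.1% and 87.1% of the mean of replicates 2 and 3, and Oas2 at 66.3%. Oasl2 stood at 31.2%, Oas1a at 25.7% and the paralogue Oas1b at 41.8%. Set against the mean without SMARTA, that library was 6.47-fold higher for Oasl1, 4.93-fold for Oasl2, 3.86-fold for Oas3 and 1.68-fold for Oas1a. The whole list of 12 macrophage and monocyte markers summed to 441 to 697 CPM without SMARTA (per library total). With SMARTA they summed to 804 CPM in replicate 1, 1687 in replicate 2 and 2194 in replicate 3, of which Ccr2, also a T cell gene and the 1 marker called higher, made up most. Without Ccr2, a choice made after the values were seen, the other 11 summed to 89.5 to 187 CPM without SMARTA and with SMARTA to 205 CPM in replicate 1, 37.9 in replicate 2 and 42.8 in replicate 3. Single markers did not all follow that sum: Lyz2 made up 114 of the 205 CPM, while Cd68 was at 6.49 CPM in replicate 1 and at 11.1 and 17.4 CPM in replicates 2 and 3. The part of macrophage RNA in the OAS levels was not tested.

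The OAS genes were compared pair by pair to ask whether some changed more than others. For each of the 15 pairs the log2 ratio of the 2 genes was taken in every library, and its group means were compared by exact permutation (two-sided, 35 ways to split the libraries, smallest p 0.0286). With so high a smallest p, a pair can pass adjustment over the 15 pairs only if most of them reach it together. A difference in only a few pairs could thus not pass. No pair passed with Benjamini-Hochberg adjustment over the 15 pairs, where the smallest adjusted exact p was 0.214, and 2 had an unadjusted p under 0.05. Both contain Oas1g, with its few counts. The ratio of Oas1a to Oasl2 went from 1.23 ± 0.73 (SD, n = 4) to −0.21 ± 0.42 (SD, n = 3) on the log2 scale without overlap (exact permutation p = 0.0571, adjusted 0.214). The ratio of Oas3 to Oasl1 went from 4.01 ± 0.62 (SD, n = 4) to 3.27 ± 0.13 (SD, n = 3) with overlap (exact permutation p = 0.114, adjusted 0.268). The fold changes of the genes are therefore not shown to differ from each other at this number of libraries, nor to be alike.

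Levels per length are given as RPKM, the TMM-scaled CPM per kilobase of exon. Since reads that match several places were left out, Oas1a, with 57.6% shared words, and Oas1c, with 15.1%, may stand too low in the order against genes with few shared words. Without SMARTA the order was Oas3 at 9.48 ± 1.52 RPKM (SD, n = 4), Oas1b at 6.60 ± 0.899, Oas1c at 6.15 ± 0.621, Oas1a at 4.18 ± 0.521, Oasl1 at 1.61 ± 0.42, Oas2 at 0.771 ± 0.87 and Oasl2 at 0.55 ± 0.218. Oas1b and Oas1c did not differ beyond their spread, and Oasl1 and Oasl2 both lay within 1 SD of Oas2. With SMARTA it was Oas3 at 40.2 ± 4.91 RPKM (SD, n = 3), Oas1a at 20.5 ± 12.5, Oas1b at 20.2 ± 9.63, Oasl1 at 11.3 ± 0.739, Oas1c at 9.68 ± 0.908, Oasl2 at 6.70 ± 3.59 and Oas2 at 5.02 ± 1.24. Oas3 was the highest in each of the 3 libraries. Below it the order of means is uncertain: Oasl1 and Oas1c lay within 1 SD of Oas1a, as did Oas1b, Oasl1 lay within 1 SD of Oas1b, and Oas1c and Oas2 lay within 1 SD of Oasl2. In replicate 1 Oas1a, at 7.02 RPKM, was below Oasl1, Oas1b and Oas1c, at 10.4, 10.4 and 10.3 RPKM. The 6 genes summed to 15.2 to 18.0 RPKM without and to 60.5, 95.2 and 95.7 RPKM with SMARTA.

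The make-up of the family in each library is given as shares, without a test. Out of the summed RPKM of all 12 OAS genes, Oas3 made up 26.0% to 36.9% without and 28.3% to 45.04% with SMARTA, which overlap. Oasl1 went from 3.74% to 7.15% without up to 8.66% to 12.8% with SMARTA, and Oasl2 from 1.12% to 2.61% up to 3.34% to 7.77%, both without overlap. Oas1c went the other way, from 17.9% to 22.8% without down to 6.96% to 12.7% with SMARTA. These shares are linked, since each rises when another falls.

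**Figure D3:**
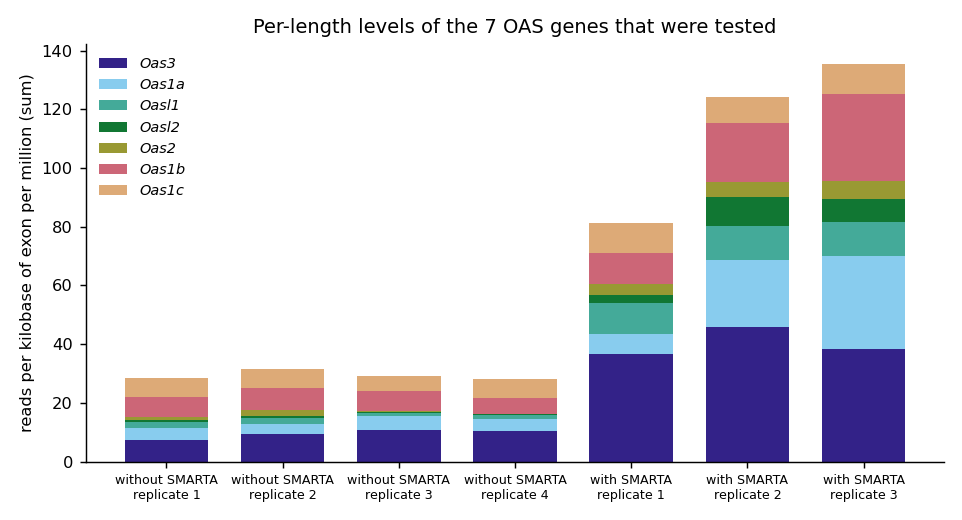
Stacked RPKM of the 7 OAS genes that were tested, 1 bar per library. Bars without SMARTA are of similar height; those with SMARTA are taller, replicate 1 less so than replicates 2 and 3, and Oas3 is the largest piece of each bar.

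The other Oas1 paralogues of the mouse cluster lie between Oas3 and Oas1g, except Oas1d, which lies beyond Oas1a. Of these 6 genes, Oas1b was called higher and Oas1c was not called. Oas1d and Oas1h had 0 counts in all 7 libraries, Oas1f had 1 count in all and Oas1e had 32, all in replicate 3 without SMARTA. Oas1b, known from mice for resistance to flaviviruses, was at 14.05, 14.6, 13.3 and 10.6 CPM without SMARTA and at 20.8, 40.5 and 59.1 CPM with SMARTA. Its libraries did not overlap between groups and replicate 1 with SMARTA was the lowest of its group, as for Oas1a (log2 fold change 1.61 ± 0.35, SE; edgeR adjusted p = 0.0467). It lost the call in the 6 fits without any 1 of the libraries other than replicate 1 with SMARTA (edgeR adjusted p 0.0788 to 0.155), with library totals alone (0.0601) and by limma-voom (0.0654).

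Oas1c was at 14.9, 16.2, 12.7 and 15.4 CPM without SMARTA and 24.8, 20.8 and 24.3 CPM with SMARTA. It did not overlap either, with a log2 fold change of 0.65 ± 0.23 (SE; edgeR adjusted p = 0.166), and DESeq2 called it (adjusted p = 0.0243). Oas1b and Oas1c start head to head with 120 bases between them. The capitals in the Oas1c sequence above fall in that gap, at chr5:120812613-120812628, between 7 and 22 bases before the first base of Oas1b. Of the exonic bases of Oas1c 9.44% lie in exons of another gene model, and with counting that ignores strand such reads are left out.

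No call was made among 4 listed genes tied to the turnover or action of oligoadenylates. By edgeR 0 were called, as by DESeq2 and limma-voom, and 0 had an unadjusted p under 0.05. Of all genes tested edgeR called 3.15% in either direction, so 0 of 4 does not set these genes apart. The median log2 fold change of the 4 was −0.48, beside −0.0034 over all genes tested. Abce1, a ribosome recycling factor, was at 255 ± 69.1 CPM (SD, n = 4) and 155 ± 81.7 CPM (SD, n = 3), with a log2 fold change of −0.72 ± 0.40 (SE; edgeR adjusted p = 0.395). Replicate 1 with SMARTA had 64.5 CPM of it. Pde12, a phosphodiesterase that in human cells degrades oligoadenylates, had −0.18 ± 0.26 (SE), and Enpp1, an ectonucleotidase, had −0.24 ± 0.31 (SE; edgeR adjusted p = 0.779 and 0.752). Akap7, with 139 counts in all, had −1.67 ± 1.08 (SE; edgeR adjusted p = 0.471).

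Type I interferon ligands had few or no counts in these libraries. Of 20 interferon genes listed 15 had 0 counts in all 7 libraries, among them Ifnb1, and Ifna1, Ifna4, Ifnab and Ifnk had 6, 16, 15 and 7 counts in all. Only Ifng, which T lymphocytes secrete, was tested. It had 665, 219, 791 and 962 CPM without SMARTA and 24.3, 79.5 and 153 CPM with SMARTA, thus lower in the libraries where OAS genes were higher (log2 fold change −2.95 ± 0.69, SE; edgeR adjusted p = 0.0587). DESeq2 and limma-voom called it lower.

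Receptors and kinases of the pathway had positive log2 fold changes in 8 of 8 tested genes (median 0.65), and 1 was called. Over all 15896 genes tested 7913 had positive values and 1.52% were called higher. Ifngr1, a chain of the interferon gamma receptor, rose (edgeR adjusted p = 0.0169). It lost the call in 5 of the 7 fits with 1 library left out, which lacked replicate 2 or 3 of the group with SMARTA or replicate 1, 3 or 4 of the other group (edgeR adjusted p 0.055 to 0.0751). Ifnar1, a chain of the type I receptor, was at 366 ± 119 CPM (SD, n = 4) and 527 ± 72.4 CPM (SD, n = 3), with 0.52 ± 0.28 (SE; edgeR adjusted p = 0.374). The kinases Jak1 and Tyk2 had log2 fold changes of 0.88 and 0.36, and Il10rb, a chain of the interferon lambda receptor, 0.40 (edgeR adjusted p = 0.096, 0.574 and 0.413).

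Among 9 interferon signal factors and brakes 5 rose and 0 fell, with a median log2 fold change of 1.16. Of all genes tested 1.52% were called higher and 1.63% lower. Stat2 and Irf9, parts of the complex that drives OAS genes, rose by 1.50 ± 0.29 and 1.16 ± 0.22 (SE; edgeR adjusted p = 0.0399 and 0.0352). Irf7, whose translation Oasl1 restrains in mice, rose by 1.90, and Usp18, which brakes type I receptor signals, rose by 2.29 ± 0.34 (SE; edgeR adjusted p = 0.0179). Isg15, a ubiquitin-like modifier, also rose. Irf1, Irf2 and Irf3 had values of 0.82, 0.56 and 0.49 and Socs1, a brake on cytokine receptors, 0.45; none of the 4 was called. The number that rose was 2 to 6 with 1 library left out.

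Other sensors of foreign or misplaced nucleic acid were called higher in 4 of 10 tested genes and lower in 0, with a median of 1.12. Of all genes tested 1.52% were called higher and 1.63% lower. In this list 9 genes had a positive log2 fold change, and of 6 at an unadjusted p under 0.05 (edgeR) 5 were higher. The 4 called were Ddx58, which encodes RIG-I (1.42 ± 0.28, SE), its relative Dhx58 (1.40 ± 0.21), the RNA editor Adar (1.04 ± 0.19) and the Z-form nucleic acid sensor Zbp1 (1.64 ± 0.23). The edgeR adjusted p-values were 0.0402, 0.0175, 0.0328 and 0.0174. Eif2ak2, which encodes PKR, a kinase activated by double-stranded RNA, was not called (0.72 ± 0.44, SE; edgeR adjusted p = 0.446), nor was Ifih1, which encodes MDA5 (1.58 ± 0.55; 0.172). Tmem173, which encodes STING, and Mavs, the adaptor of RIG-I and MDA5, had 0.35 and 0.54 (edgeR adjusted p = 0.492 and 0.287). Between 0 and 6 of these genes were called higher with 1 library left out, 6 of them without replicate 1 with SMARTA.

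**Figure D4:**
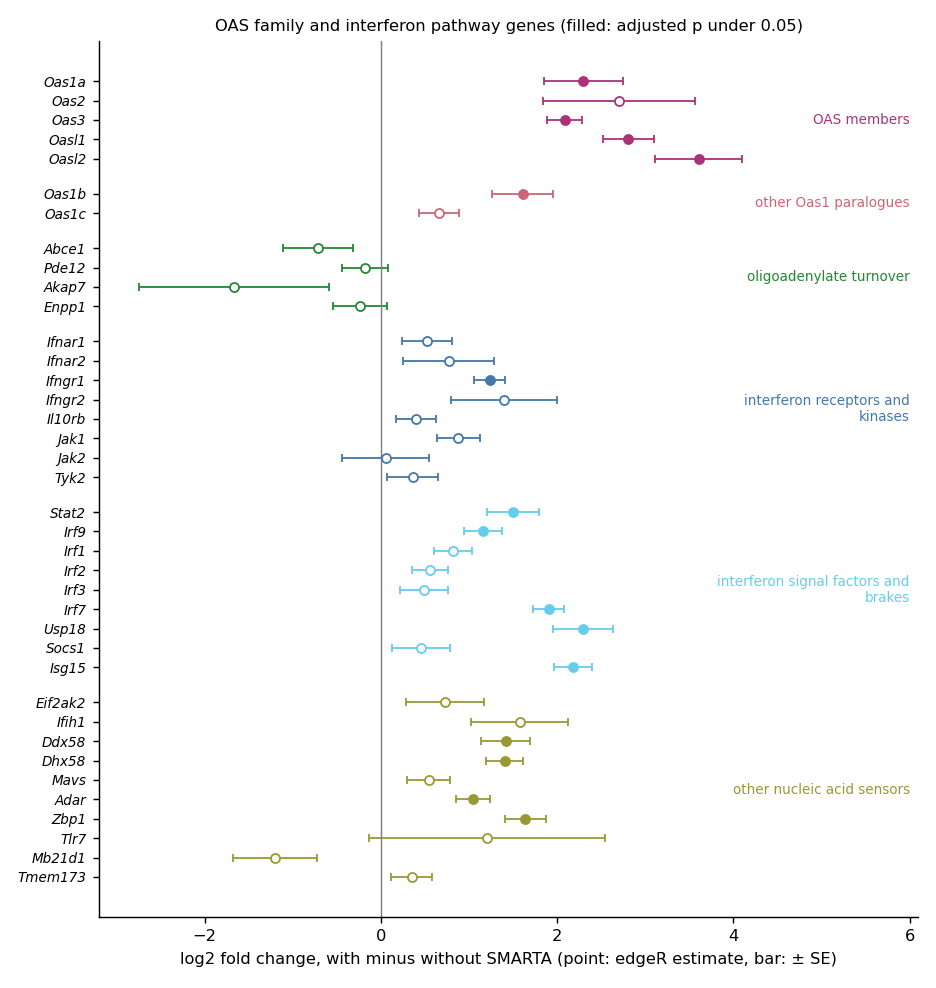
Log2 fold changes with minus without SMARTA (edgeR estimate, bar ± SE) for the OAS genes tested and the listed pathway genes, coloured by list; filled points have an adjusted p under 0.05. OAS genes lie at 2.08 to 3.61, Oas1b and Oas1c at 1.61 and 0.65, and the 4 turnover genes lie below 0.

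Genes that neighbour the OAS loci were examined next. Of all genes tested, edgeR called 3.15% in either direction, DESeq2 10.9% and limma-voom 3.33%. At such shares lists as short as these hold few calls or none. Within 500 kb of the span of Oas1, Oas2 and Oas3 genes (chromosome 5 from 120730333 to 120921652), 16 of 37 other gene rows were tested and 1 was called (5 at an unadjusted p under 0.05; DESeq2 called 1 higher and 1 lower, limma-voom 1 higher). This was Trafd1, a regulator of innate immune signals, which lies 450073 bases away. It rose by 1.57 ± 0.18 on the log2 scale (SE; edgeR adjusted p = 0.0119), with group means of 109 and 324 CPM, and lost the call without replicate 4 lacking SMARTA (edgeR adjusted p = 0.0596). The median over the 16 was −0.24. Within 500 kb of Oasl1 and Oasl2, 29 of 57 gene rows were tested and edgeR called 0, with 4 at an unadjusted p under 0.05, DESeq2 calling 1 lower and limma-voom 0, and a median of −0.045.

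The genes most like the OAS genes were sought by Pearson correlation with their mean profile, the mean over the 5 tested OAS genes of centred log2 CPM in 7 libraries. Among 8248 other genes at a mean log2 CPM of at least 3, the 10 closest were Ssbp2, Ifit3, Rnf146, Ifit3b, Ifitm3, Mettl7a1, Ctla2b, Trim12a, Rtp4 and Padi2, with r from 0.982 to 0.9935. These values are a description without a test, and much of them is the group difference that all these genes share; Ifit3 and Ifit3b are near-identical copies whose reads are uncertain. With group means removed the closest was Nsmce4a (r = 0.991 over 7 libraries), whose group means differed by −0.044 on the log2 scale (edgeR adjusted p = 0.96). This r is the highest of 8248 and was not tested. The OAS genes themselves shared no single profile there: r ran from −0.66 (Oas3 and Oasl1) to 0.81 (Oas2 and Oasl1). Without SMARTA Oas2 had the widest spread, an SD of 1.86 on the log2 scale against 0.18 to 0.56 for the others.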

How the data were processed

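Per the labels' protocols, sorted cells went into Trizol, and 6 to 15 ng of total RNA were amplified with the SMART-seq V4 kit, which does not mark strand, and sequenced as pairs of 50 bases. The submitters' processing notes name STAR 2.6.0c with featureCounts 1.6.2 and, as build, GRCm38.p6. Pairs were summed for each gene name over GENCODE M17 exons by the authors, per the file headers, with no strand setting and no option to keep reads that match several places or genes; the deposited values are raw counts, and the length column, also deposited, gave the RPKM computed here. Samples were grouped by title. All 15896 genes passing filterByExpr (minimum count 10, minimum total 15) were fitted in edgeR 4.0.16 (R 4.3.3; TMM, robust quasi-likelihood, two-sided, no covariate), and the OAS rows were read from that fit; log2 CPM used a prior count of 2. DESeq2 1.42.0 and limma 3.58.1 (voom), other scalings and filters, the replicate number as a block and leaving out each library were alternatives. Fits were tested on simulated data. Chi-square over its degrees of freedom was 93.5 to 444 between libraries of a group, above sampling noise, so none was merged. Promoter windows came from RefSeq, with alignment by Biopython 1.88.

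The OAS genes, the lists and the rules were chosen with earlier results of these data known, and some listed genes are not reported here. Named from each list were all called genes and up to 4 others of highest mean CPM. Retnlg, S100a8, Csf3r, Camp, Cd40lg, Pecam1, Cd4, Foxp3, Klrb1c, Lyz2, Cd68 and Ccr2 were picked from the marker lists after their values were seen. For 3 further marker lists the ranges of summed CPM without and with SMARTA were as follows. They were B cell (10.4 to 38.8 and 11.3 to 60.1), NK cell (40.7 to 90.1 and 15.9 to 102) and dendritic cell (820 to 951 and 476 to 954).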

Additional observations from a re-analysis of the deposited data

Results flagged for a closer look

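In the 4 libraries without SMARTA, Oas1e stood at 0.65 CPM (32 counts) in replicate 3 and at 0 counts in the 3 others, so that this library lay far from its group. Oas1f stood at 0.0217 CPM, which is 1 count, in replicate 2 and at 0 in the others. Among the 10 OAS genes with any count in this group, all examined in this way, these 2 were picked out. Chance picks about 1 in 20 groups of continuous values, but that rate does not apply here, since a gene with counts in 1 of 4 libraries is always picked, even with 1 count.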

How the results depend on the processing

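The 500 calls over all genes and the 4 OAS calls depend on which libraries enter: with 1 library left out 17 to 907 genes were called in either direction and 2 to 4 OAS genes higher. A filter of at least 5 CPM in at least 3 libraries gave 842 calls and DESeq2 1740. The OAS count stayed at 4 or 5 under the other scalings, filters and tools without a block, and the 5 tested OAS genes kept a positive fold change in all fits. No OAS gene was called lower in any fit. Replicate numbers did not pair the libraries: same-numbered libraries had correlations of −0.27 to 0.03 in their deviations from group means, and no library matched its own number best. With the replicate number as a block edgeR called 0 genes and 0 OAS genes (1631 genes and 5 OAS genes at an unadjusted p under 0.05; other tools were not run with a block), with the file-name number as block also 0 and 0 (1868 and 5). In these fits the 5 OAS genes had log2 fold changes of 2.06 to 3.43 and of 1.98 to 3.99. A block leaves few degrees of freedom with so few libraries, and a library whose number has no partner adds nothing to the comparison. The difference in the log2 ratio of Oas2 to Oasl2 was −0.0021 and reversed to 0.023 with a prior count of 0.5, and ranged from −0.51 to 0.50 with 1 library left out; that of Oas1a to Oas3 was −0.047 and ranged from −0.52 to 0.53. The cause of these shifts was not tested. For the pairs, the exact test with 1 library left out cannot go below p = 0.0667 (4 against 2) or 0.1 (3 against 3), so only the values are given. A search that also takes GAAA, any 1 base and GAAA matched in the same number of OAS windows, 3 of 5. Low counts limit Oas1g and the rarer paralogues, and whether more depth would change this was not tested. For the others the number of libraries limits precision.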
